A study of Homo sapiens with 9 samples.

Results

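Wnt genes were followed in LX2, an immortalised human line derived from hepatic stellate cells. In the injured liver, stellate cells turn into collagen-producing myofibroblasts. As a line, LX2 stands for stellate cells only in part. The set holds 41 genes out of 36601 in the count tables, listed by symbol and role, with no threshold on a measured value in the rule: 9 Wnt ligands and the ligand-processing enzyme PORCN, 14 receptors and co-receptors, 4 members of the beta-catenin destruction complex, 5 nuclear effectors and 8 inhibitors. All 41 symbols matched a single Ensembl gene, and 36 of the 41 passed the filter on low counts that left 15560 genes to be tested. WNT2, WNT16, DKK2, RNF43 and NKD2 did not pass it.

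Cells grew in serum-containing medium and were transfected by lipofection with siRNA at 20 nM, which was non-targeting in the siNT group and directed at YAP in the siYAP group and at TAZ in the siTAZ group. The treatment lasted 7 days. YAP (gene YAP1) and TAZ (gene WWTR1) are paired transcriptional coactivators of the Hippo pathway that bind DNA through TEAD factors. Each group held 3 libraries made from total RNA with an mRNA-seq kit. The series' text calls them biological replicates and does not say whether they came from separate cultures, so the p-values cover only library-to-library spread, which may be technical. All groups carried an siRNA, untransfected cells are not among the samples analysed here, and the siRNA sequences are not given in the sources used here.

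Wnt proteins are secreted, lipid-bearing ligands that bind Frizzled receptors on the cell surface. In the canonical branch, a Frizzled and its co-receptor LRP5 or LRP6 inactivate a cytoplasmic complex of AXIN, APC and GSK3B, which otherwise marks beta-catenin for destruction. Beta-catenin then enters the nucleus and activates genes together with TCF and LEF factors. Ligands such as WNT5A signal mainly without beta-catenin, through receptors that include ROR1, ROR2 and RYK. In the liver, Wnt signals from non-parenchymal cells pattern hepatocyte metabolism, and stellate cells both make and receive them. YAP and TAZ also meet the pathway physically, since both have been found in the destruction complex.

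Depth was even, with 16498508 to 18752805 counts in genes per library, and 3 counts corresponded to 0.157 to 0.177 CPM (read counts relative to library size, scaled by the trimmed mean of M-values), a limit that covers counting error only. YAP1 read 212, 212 and 205 CPM with siNT, 28, 25.7 and 25.2 with siYAP and 176, 161 and 173 with siTAZ. WWTR1 read 66.1, 64.1 and 55.8 CPM with siNT, 76.2, 75.2 and 75.9 with siYAP and 8.61, 9.56 and 10.4 with siTAZ. Each targeted transcript was lowest in the libraries labelled with its siRNA, while YAP1 also fell 1.23-fold with siTAZ (adjusted p = 2.42e-08) and WWTR1 rose 1.22-fold with siYAP (6.31e-05). Of 14 stellate and fibroblast markers only LRAT, the retinoid-storing enzyme of quiescent stellate cells, had 3 or fewer counts in every library. DES and DCN were also scarce, with 0 to 14 and 2 to 19 counts per library, and DES was not tested. The summed level of these 14 markers was 10277 to 10384 CPM after siNT, 7327 to 7549 after siYAP and 15187 to 15205 after siTAZ. COL1A1 and SPARC made up most of the siNT sum, and single markers went both ways: of 12 tested, 6 rose (COL6A1 3.37-fold, TIMP1 2.56-fold and COL1A2 2.10-fold among them) and 5 fell after siYAP, and 7 rose and 2 fell after siTAZ. Of 6 hepatocyte markers 5 stayed at or under 3 counts in every library of each group, and the list summed to 1.9 to 2, 12.8 to 16 and 0.704 to 2.13 CPM in the same order, almost all of it SERPINA1. The 6 endothelial markers summed to 13.2 to 16.2, 12.6 to 16.3 and 7.85 to 9.06 CPM, the 6 macrophage and leukocyte markers to 12.8 to 14.5, 12.2 to 14.9 and 9.77 to 11.8 CPM, and the 4 cholangiocyte markers to 1.71 to 2.70, 1.60 to 1.71 and 1.46 to 3.55 CPM. Similar sums again held opposite changes: after siYAP PECAM1 rose 12.2-fold and CDH5 fell 14.1-fold among the endothelial markers, and CSF1R rose 3.45-fold and PTPRC fell 17-fold among those of leukocytes. Reads that the counting assigned to no gene, whether in introns or between genes, made up 4.73% to 5.13% of each siNT library. They made up 6.01% to 7.49% of each siYAP library and 5.53% to 5.63% of each siTAZ library. The part of these shifts in the Wnt results was not tested.

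After siYAP, Wnt receptors and TCF factors were mostly lower, the secreted inhibitors DKK1 and SFRP1 fell at least 4-fold, and one receptor, FZD8, rose 6.98-fold. Of the 36 members tested, 8 rose and 21 fell (edgeR's quasi-likelihood test, Benjamini-Hochberg adjusted p under 0.05). That is 80.6% called, against 67.1% of all genes tested (33.8% higher and 33.4% lower). Every adjusted p given here comes from that edgeR test unless DESeq2 is named. A change of over 2-fold was called in 7 members, 19.4%, against 19.8% of all genes. The median log2 fold change of the members was -0.44, and that of all genes tested was 0.02. The members were chosen with earlier results of these data known, so these shares and medians describe this list only. After siTAZ, 7 members rose and 6 fell, 36.1% against 34.6% of all genes (16.4% higher and 18.2% lower), with a median of 0.04 beside 0.01 for all genes. Only LEF1, FZD4 and DKK1 passed 2-fold there, 8.33% of the members against 2.97% of all genes. The siYAP and siTAZ comparisons share the siNT libraries, so they are not independent of each other.

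Setting siTAZ directly against siYAP, which leaves out siNT and tests how the knockdowns differ, 18 members were higher after siTAZ and 7 were lower. This made 69.4% of the members, beside 66.2% of all genes tested (33% higher and 33.2% lower), with 8 members past 2-fold (22.2%, against 18.8% of all genes). The median log2 difference was 0.38 among the members and -0.01 among all genes. All 18 members that were higher after siTAZ than after siYAP, apart from WNT11, had fallen against siNT after siYAP. Both comparisons use the siYAP libraries, so a low siYAP level enters each of them. The same overlap was not counted over all genes, so it describes no trait of the members.

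**Figure D1:**
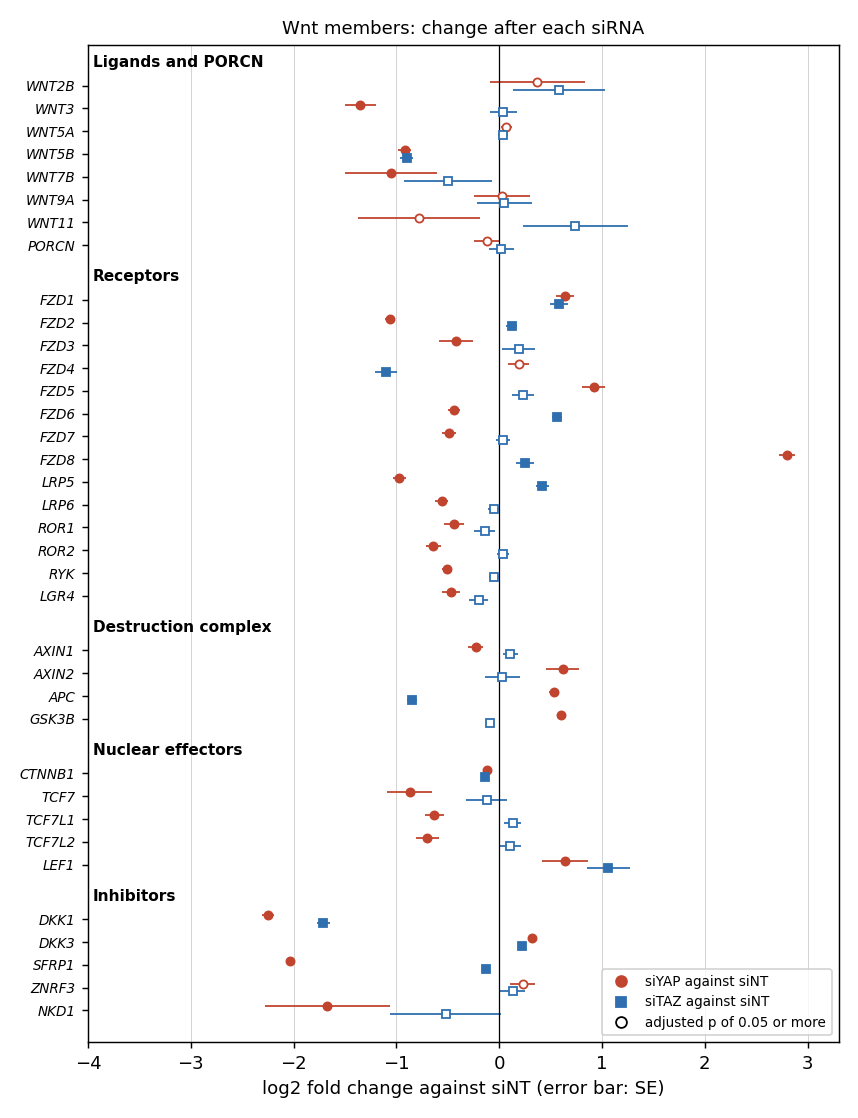
Log2 fold change against siNT of the 36 tested members, by class, after siYAP (red circles) and siTAZ (blue squares), with the standard error of each from the edgeR fit. Filled symbols passed an adjusted p of 0.05. Most receptors lie left of zero after siYAP and near zero after siTAZ, FZD8 lies far right after siYAP (2.80), DKK1 lies left after both (-2.25 and -1.71), and APC and FZD6 point in opposite directions.

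Among the inhibitors, DKK1 and SFRP1 had the largest falls after siYAP, and after siTAZ DKK1 did. DKK1, a secreted protein that blocks LRP5 and LRP6, was present at 149, 142 and 142 CPM after siNT, at 33.8, 29.5 and 27.7 after siYAP and at 46.1, 42.0 and 44.2 after siTAZ. No library of one group reached the range of another. Its log2 fold change was -2.25 (SE 0.06) after siYAP and -1.71 (0.06) after siTAZ, with adjusted p-values of 1.33e-41 and 1.11e-34. The siTAZ libraries stood 1.45-fold above the siYAP libraries (adjusted p = 9.12e-11). DKK1 was the member with the largest fall after either siRNA.

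SFRP1, a secreted Frizzled-like protein that binds Wnt ligands, was the most abundant member per exon length after siNT, at 563 ± 37.9 TPM (counts per kilobase of annotated exon, scaled to a common total; SD, n = 3). Its libraries read 653, 597 and 577 CPM in the siNT libraries, 149, 150 and 150 with siYAP and 537, 569 and 558 with siTAZ. It fell 4.07-fold after siYAP (adjusted p = 8.27e-49). The siTAZ libraries all lay below the lowest siNT library, and the test called a small fall there, by 0.13 on the log2 scale (adjusted p = 0.00161). That call was lost without siNT replicate 1 (adjusted p = 0.107). Between the knockdowns SFRP1 differed 3.71-fold (adjusted p = 3.12e-47).

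DKK3, a divergent relative of DKK1 that does not act as a classical LRP blocker, went the other way. It read 449, 432 and 452 CPM in the siNT libraries, 543, 566 and 561 with siYAP and 523, 516 and 519 with siTAZ, a rise of 1.25-fold and of 1.17-fold (adjusted p = 5.96e-14 and 3.67e-08). Summed per exon length, DKK1, DKK2, DKK3 and SFRP1 came to 1238 ± 48.1 TPM after siNT, 724.5 ± 5.43 after siYAP and 1079 ± 5.80 after siTAZ (SD, n = 3). DKK3 made up 31.3% ± 1.16 of that sum after siNT, 70.9% ± 0.981 after siYAP and 42.9% ± 0.621 after siTAZ. SFRP1 held 45.5% ± 1.35, 20.2% ± 0.103 and 48.7% ± 1.06, and DKK1 23.3% ± 0.255, 8.86% ± 0.976 and 8.36% ± 0.450. Of these transcripts, the most abundant per exon length was therefore SFRP1 in the siNT and siTAZ libraries and DKK3 in the siYAP libraries.

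The other inhibitors were scarce or did not pass. NKD1, a cytoplasmic feedback inhibitor that binds Dishevelled, read 0.472, 1.32 and 0.679 CPM after siNT and 0.106, 0.418 and 0.237 after siYAP, a log2 fold change of -1.67 (SE 0.61, adjusted p = 0.0135). Its siYAP libraries held only a few counts each, and the call was lost without siNT replicate 2 (adjusted p = 0.166) or siYAP replicate 1 (0.0892). After siTAZ, NKD1 read 0.758, 0.382 and 0.577 CPM, within the siNT range apart from the lowest library (adjusted p = 0.497). ZNRF3, a membrane ubiquitin ligase that removes Frizzled from the cell surface, stood at 12.9 ± 0.858, 15.1 ± 1.13 and 14.1 ± 2.28 CPM after siNT, siYAP and siTAZ (adjusted p = 0.0828 and 0.447). With upper-quartile scaling its siYAP value was called (log2 0.26, adjusted p = 0.0472). Its relative RNF43 had 0 to 4 counts per library, DKK2 0 to 4 and NKD2 0 to 15, and these were not tested.

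The DKK1 and FZD8 promoters are shown because these genes gave the largest fall and the largest rise among the members. Both are from RefSeq on GRCh38.p14, 250 bases before to 50 bases after the start, 5′ to 3′ on the gene's strand: DKK1 at chr10:52314031-52314330 on the plus strand and FZD8 at chr10:35642247-35642546 on the minus strand. Capitals mark a TEAD core (GGAATG, either strand), a TCF/LEF core (CTTTGA, either strand) and a TATA box (TATAAA, gene strand only).
DKK1 promoter: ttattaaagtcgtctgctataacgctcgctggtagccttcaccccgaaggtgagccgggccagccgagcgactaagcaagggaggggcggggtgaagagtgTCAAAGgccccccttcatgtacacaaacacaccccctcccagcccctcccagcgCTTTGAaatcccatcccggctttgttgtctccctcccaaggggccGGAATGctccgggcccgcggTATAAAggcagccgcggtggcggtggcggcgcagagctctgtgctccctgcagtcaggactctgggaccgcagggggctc
FZD8 promoter: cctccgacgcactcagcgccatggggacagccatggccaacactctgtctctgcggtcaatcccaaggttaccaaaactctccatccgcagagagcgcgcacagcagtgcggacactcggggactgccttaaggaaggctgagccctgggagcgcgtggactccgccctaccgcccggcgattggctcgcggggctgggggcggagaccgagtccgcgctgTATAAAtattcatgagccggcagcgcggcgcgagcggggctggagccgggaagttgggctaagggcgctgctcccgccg
DKK1 held a TEAD core 50 bases before its start and TCF/LEF cores at 149 and 95 bases before it. FZD8 held neither, and both had a TATA box, 30 and 29 bases before the start. The TEAD core was found in 14% of 35116 promoters of this length, the TCF/LEF core in 12.9% and the TATA box in 7.33%. Of 28 members with a promoter in the table, 4 held the TEAD core (WNT16, APC, RNF43 and DKK1), 2 the TCF/LEF core (PORCN and DKK1) and 2 the TATA box. A match of 6 letters is a description of the window and not a binding site.

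Frizzled receptors changed in composition after siYAP more than in total. FZD8 read 12.2, 12.1 and 13.0 CPM in the siNT libraries, 82.5, 90.8 and 87.7 with siYAP and 15, 15.3 and 14.2 with siTAZ. The siYAP libraries all lay more than 5-fold above every other library, and the log2 fold change against siNT was 2.80 (SE 0.08, adjusted p = 1.17e-40). After siTAZ the rise was 1.19-fold (adjusted p = 0.0274), and it missed the threshold in the fit without the filter (0.0523), in the fit of the 2 groups alone (0.0767) and on leaving out siNT replicate 1 or 2 or siTAZ replicate 1 or 2 (0.0683 to 0.0855).

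FZD2, the most abundant Frizzled per exon length after siNT (228 ± 3.35 TPM), read 111, 107 and 111 CPM in the siNT libraries, 52.4, 53.0 and 52.3 with siYAP and 114, 119 and 124 with siTAZ. It fell 2.09-fold after siYAP (adjusted p = 4.38e-28). Its siTAZ value passed narrowly (1.09-fold higher, adjusted p = 0.0465) and not with DESeq2 (0.0717), with RLE scaling (0.0582), without the filter (0.0961), or without any one of siNT replicates 1, 2 and 3 or siTAZ replicates 2 and 3 (0.0767 to 0.207).

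FZD4, a receptor that besides Wnt ligands binds norrin, was the Frizzled that fell after siTAZ. Its libraries read 18.2, 20.3 and 17.9 CPM in the siNT libraries, 21.2, 21.4 and 21.7 with siYAP and 8.99, 9.17 and 8.02 with siTAZ, a fall of 2.15-fold after siTAZ (adjusted p = 1.45e-12). After siYAP the libraries lay just above those of siNT without passing the test (adjusted p = 0.0966). FZD4 shares 1399 exon bases with PRSS23, which lies on the opposite strand and read 1150, 846 and 1070 CPM on average in the siNT, siYAP and siTAZ libraries. Whether reads were counted by strand could not be learned from the labels, so the FZD4 count is uncertain. The same holds for WNT2B, whose opposite-strand partner ST7L (14.9, 15.9 and 17.1 CPM) exceeded it. FZD6, LEF1 and DKK1 also share exon bases with an opposite-strand gene (BAALC-AS1, LEF1-AS1 and PRKG1-AS1), each of which averaged less than its partner in every group.

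FZD6 moved in opposite directions. It read 67.6, 74.0 and 69.2 CPM in the siNT libraries, 51.8, 49.9 and 54.3 with siYAP and 103, 105 and 103 with siTAZ, so that the groups did not overlap. It fell by 0.44 on the log2 scale after siYAP (adjusted p = 4.61e-10), rose by 0.56 after siTAZ (1.06e-13), and differed 1.99-fold between the knockdowns (3.84e-25). FZD1 rose after both siRNAs, from 17.4 ± 1.38 CPM to 27.1 ± 1.99 and 25.9 ± 1.03 (SD, n = 3; 1.56-fold and 1.49-fold, adjusted p = 1.29e-08 and 7.24e-07). FZD5 rose 1.89-fold after siYAP (adjusted p = 3.51e-11) and stood at 12 ± 0.597 CPM after siNT and 14 ± 0.424 after siTAZ (adjusted p = 0.119). FZD7 fell 1.40-fold after siYAP (adjusted p = 3.12e-08), with 47.7 ± 2.75 CPM after siNT and 49.0 ± 4.61 after siTAZ. FZD3 fell 1.33-fold after siYAP (adjusted p = 0.0288), a call lost without siNT replicate 1 (0.126) or siYAP replicate 1 or 2 (0.0818 and 0.0952).

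Per exon length, the 8 Frizzled genes summed to 404.9 ± 2.34 TPM after siNT, 367.1 ± 9.59 after siYAP and 477.3 ± 8.92 after siTAZ (SD, n = 3). FZD2 supplied 56.4% ± 1.13 of the sum after siNT, 31.7% ± 0.854 after siYAP and 53.3% ± 0.855 after siTAZ. FZD8 supplied 3.36% ± 0.111, 27.4% ± 0.783 and 3.49% ± 0.217. It was the fourth Frizzled in the siNT libraries, behind FZD2, FZD6 and FZD7, and second to FZD2 in the siYAP libraries, where FZD6 held 16.3% ± 0.717 and FZD7 11.2% ± 0.646. These shares are ratios within a library and do not depend on the scaling between libraries, but they rest on exon lengths from GENCODE 29, which may not be the annotation behind the counts.

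**Figure D2:**
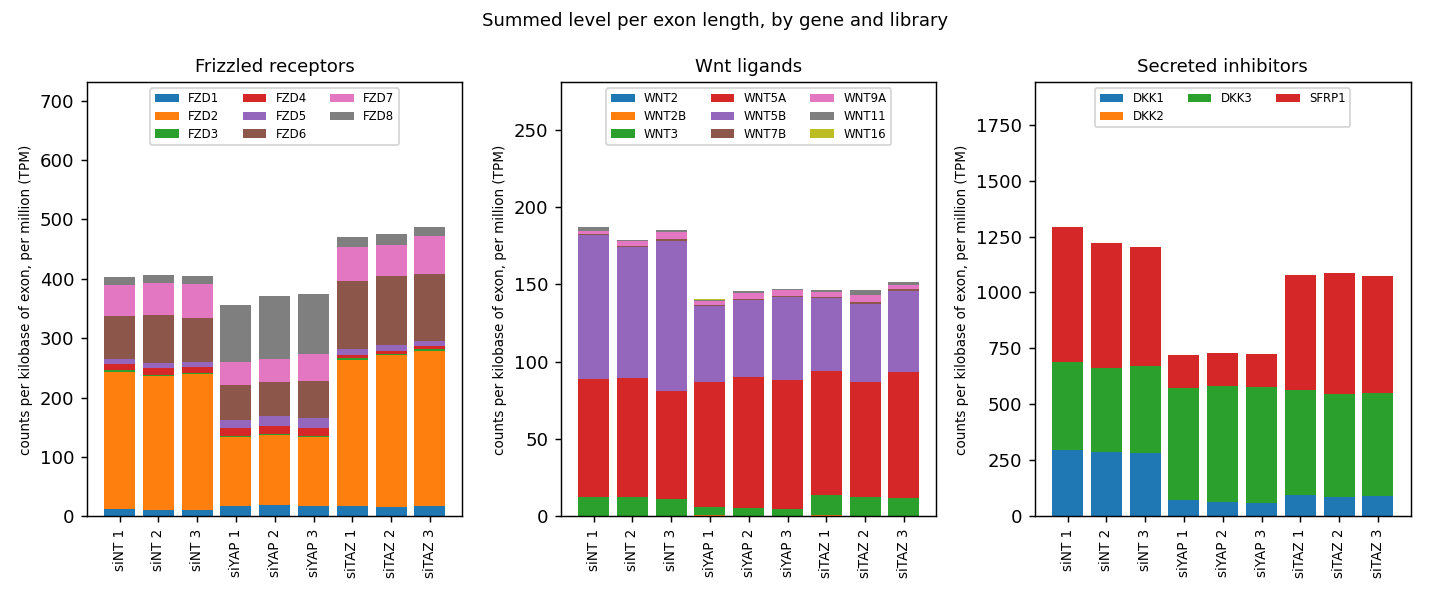
Stacked levels per exon length (TPM, vertical axis) of 8 Frizzled receptors, 9 Wnt ligands and 4 secreted inhibitors in each of the 9 libraries (horizontal axis). The FZD8 segment widens in the 3 siYAP libraries while the FZD2 segment shrinks, the WNT5B segment is smaller in all siYAP and siTAZ libraries, and the SFRP1 segment is smallest in the 3 siYAP libraries.

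The co-receptors and the alternative receptors among the members all fell after siYAP. LRP5 read 72.4, 76.4 and 71.6 CPM in the siNT libraries, 33.1, 40.0 and 39.6 with siYAP and 94.9, 95.8 and 104 with siTAZ. It fell 1.95-fold after siYAP (adjusted p = 1.29e-21) and rose 1.34-fold after siTAZ (1.21e-08), with no overlap between groups. LRP6 read 101, 85.6 and 86.4 CPM in the siNT libraries, 64.9, 61.8 and 58.4 with siYAP and 94.1, 79.8 and 90.3 with siTAZ, a fall of 1.47-fold after siYAP (adjusted p = 3.60e-11) with overlapping values after siTAZ (0.603). Both co-receptors thus fell after siYAP, and LRP5 alone of the pair was called after siTAZ. Whether their siTAZ effects differ from each other was not tested.

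The receptor tyrosine kinase-like proteins ROR1 and ROR2 and the pseudokinase RYK, which bind WNT5A and relatives, each fell after siYAP. ROR2 went from 57.1 ± 3.19 to 36.7 ± 2.61 CPM (SD, n = 3; 1.55-fold, adjusted p = 4.20e-13), RYK from 106 ± 5.05 to 74.5 ± 0.292 (1.42-fold, 4.06e-14) and ROR1 from 22.1 ± 1.36 to 16.3 ± 1.71 (1.36-fold, 0.000102). After siTAZ they stood at 58.6 ± 0.636, 102 ± 1.24 and 20.0 ± 0.435 CPM, and none passed the test (adjusted p = 0.273 to 0.688). LGR4, the receptor through which R-spondins protect Frizzled from removal, fell 1.39-fold after siYAP (adjusted p = 3.42e-06). After siTAZ it stood at 26.8 ± 2.47 CPM beside 30.8 ± 2.26 after siNT (adjusted p = 0.0595), and leaving out siNT replicate 2 or siTAZ replicate 1 brought it past the threshold (0.0388 and 0.0291). In all, 10 of 14 receptors fell and 3 rose after siYAP, and 1 fell and 5 rose after siTAZ. Of all genes tested, 33.4% fell and 33.8% rose after siYAP, and 18.2% and 16.4% after siTAZ.

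Among the ligands, WNT5B fell to overlapping levels after either siRNA, while WNT5A, its close relative, was not called after either. WNT5B read 90.8, 82.4 and 95.0 CPM in the siNT libraries, 45.4, 46.3 and 49.8 with siYAP and 44.4, 48.7 and 50.7 with siTAZ. The fall was 1.90-fold after siYAP and 1.87-fold after siTAZ (adjusted p = 4.28e-21 and 1.25e-19), and the knockdowns differed from each other by 0.02 ± 0.06 (SE) on the log2 scale (adjusted p = 0.767). WNT5A, a ligand of beta-catenin-independent signalling, read 128, 129 and 118 CPM in the siNT libraries, 128, 135 and 132 with siYAP and 131, 121 and 134 with siTAZ. Its log2 fold changes were 0.07 ± 0.05 and 0.04 ± 0.05 (SE; adjusted p = 0.150 and 0.529), and upper-quartile scaling alone called it after siYAP, at 0.11 (0.0327). Per exon length, WNT5B exceeded WNT5A after siNT by a ratio of 1.23 ± 0.139 and stood below it after siYAP (0.617 ± 0.0302) and siTAZ (0.641 ± 0.0524).

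WNT3, a ligand of the canonical branch, read 11.8, 11.9 and 10.9 CPM in the siNT libraries, 5.05, 4.44 and 3.96 with siYAP and 12.4, 11.8 and 11.4 with siTAZ. It fell 2.56-fold after siYAP (adjusted p = 3.30e-12), overlapped siNT after siTAZ (0.842), and differed 2.63-fold between the knockdowns (9.30e-13). WNT5A, WNT5B and WNT3 together held most of the ligand transcripts in each group, and the 9 ligands summed to 183.6 ± 4.40, 144.6 ± 3.40 and 148.1 ± 3.04 TPM after siNT, siYAP and siTAZ.

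The other ligands were scarce, each under 4 CPM in every library. WNT7B read 1.18, 0.978 and 1.92 CPM in the siNT libraries, 0.585, 0.731 and 0.650 with siYAP and 0.866, 0.928 and 1.10 with siTAZ. The siYAP libraries lay below the others, and the fall of 2.07-fold passed narrowly (adjusted p = 0.0372). It missed the threshold without the filter (0.0556), with the replicate number as a block (0.0560), and without siNT replicate 3 or siYAP replicate 1, 2 or 3 (0.0524 to 0.242). WNT11 read 1.36, 0.173 and 0.566 CPM in the siNT libraries, 0.372, 0.365 and 0.473 with siYAP and 0.704, 1.86 and 0.923 with siTAZ. Neither siRNA passed against siNT (adjusted p = 0.239 and 0.282), and siTAZ exceeded siYAP 2.86-fold (0.0129), a call that ended without siTAZ replicate 2 (0.171). Relative to its mean, WNT11 varied more among the siNT libraries than the other 7 tested members of the ligand class. WNT9A stood at 2.87 ± 1.13, 2.94 ± 0.615 and 2.97 ± 0.787 CPM and WNT2B at 0.790 ± 0.161, 1.02 ± 0.247 and 1.18 ± 0.437, with no call. WNT2 had 0 to 2 counts per library and WNT16 0 to 9. PORCN, the acyltransferase that all Wnt ligands need for secretion, stood at 14.1 ± 0.669, 12.9 ± 2.28 and 14.3 ± 0.970 CPM (adjusted p = 0.391 and 0.930).

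Within the destruction complex, APC rose after siYAP and fell after siTAZ. APC, part of the complex with AXIN and GSK3B, read 85.4, 85.0 and 87.6 CPM in the siNT libraries. It read 131, 122 and 120 with siYAP and 49.5, 48.3 and 45.2 with siTAZ. The groups did not overlap, with log2 fold changes of 0.53 and -0.85 (SE 0.05 each, adjusted p = 1.22e-14 and 5.75e-21) and a 2.61-fold difference between the knockdowns (3.48e-33). GSK3B, the kinase of the complex, rose 1.52-fold after siYAP, from 139 ± 9.38 to 211 ± 2.96 CPM (SD, n = 3; adjusted p = 2.86e-20), and stood at 130 ± 3.68 after siTAZ (0.0945). Without siNT replicate 3 the siTAZ value of GSK3B was called lower (log2 -0.15, adjusted p = 0.0129). AXIN1, the limiting scaffold, fell 1.17-fold after siYAP (adjusted p = 0.00320).

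AXIN2, a relative of AXIN1 and one of the most general target genes of beta-catenin, read 5.54, 7.71 and 4.87 CPM in the siNT libraries, 9.42, 8.67 and 9.81 with siYAP and 6.12, 6.33 and 6.06 with siTAZ. The siYAP libraries lay above all others, a rise of 1.54-fold (adjusted p = 0.000721), and the siTAZ libraries lay within the siNT range (0.915). All 4 members of the complex were called after siYAP, 3 of them higher, where 67.1% of all genes tested were called.

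The APC transcript is also shown by sequence, because an earlier search of these data related the word ATGAAC in 3′ UTRs to lower levels after siTAZ. APC (chromosome 5, 112707498 to 112846239, plus strand, GENCODE 29 on GRCh38) held it at 4 sites in its longest annotated 3′ UTR of 2113 bases, more than any tested member except FZD3, which held 8 in a UTR of 11257 bases. The sites are named by their position from the first base of the UTR, with the word in capitals.
APC site 306: ttaaaataATGAACactacaga
APC site 491: ggttcccgATGAACaagtttac
APC site 818: gaaactaaATGAACatttcaga
APC site 1343: ggtctgacATGAACacttttta
Of 6 members that fell after siTAZ, APC and FZD4 held the word, and so did 10 of 23 that were not called and 2 of 7 that rose. Among all tested genes with a 3′ UTR, 40.8% of those that fell, 27.7% of those not called and 27.8% of those that rose held it. For siYAP the same search gave TGGATAA, which 4 of 21 fallen members held (WNT3, FZD3, AXIN1 and NKD1) and 1 of 8 risen members (FZD8), beside 15.2% of all fallen and 9.61% of all risen genes. DKK1, SFRP1 and WNT5B held neither word. Both words were picked from these data, and their part in any member's change was not tested.

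Nuclear effectors other than LEF1 fell after siYAP. CTNNB1, which encodes beta-catenin, read 471, 454 and 440 CPM in the siNT libraries, 413, 421 and 421 with siYAP and 412, 404 and 418 with siTAZ. Both siRNAs lowered it slightly, by 0.12 and by 0.14 on the log2 scale (SE 0.03 each, adjusted p = 0.00125 and 0.000334), without overlap with siNT, and the knockdowns did not differ by the test (log2 -0.02 ± 0.03, adjusted p = 0.522). Per exon length CTNNB1 stood at 168 ± 6.41, 164 ± 1.53 and 156 ± 2.66 TPM after siNT, siYAP and siTAZ (SD, n = 3). The siYAP fall was thus smaller on that scale, which does not use TMM. These transcript levels say nothing of beta-catenin protein, which the destruction complex controls after translation.

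TCF7L1, the most abundant TCF per exon length after siNT at 32.0 ± 1.56 TPM, fell 1.55-fold after siYAP, from 32.0 ± 1.52 to 20.8 ± 2.23 CPM (SD, n = 3; adjusted p = 1.81e-09). TCF7L2 read 18.4, 18.2 and 17.8 CPM in the siNT libraries, 11.5, 10.4 and 11.6 with siYAP and 18.4, 20.8 and 19.3 with siTAZ, a fall of 1.62-fold after siYAP (adjusted p = 8.66e-08). TCF7 fell 1.82-fold after siYAP (adjusted p = 0.000345). None of the 3 was called after siTAZ (adjusted p = 0.232 to 0.705). TCF7 shares 210 exon bases with SKP1, an abundant gene on the opposite strand at 332, 381 and 342 CPM, so its low count is uncertain.

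LEF1 was the nuclear effector that rose after both. It read 3.24, 3.11 and 2.21 CPM in the siNT libraries, 4.68, 4.85 and 3.78 with siYAP and 5.58, 5.73 and 6.58 with siTAZ, with every knockdown library above every siNT library. The rise was 1.56-fold after siYAP (adjusted p = 0.00725) and 2.09-fold after siTAZ (3.40e-05). The siYAP call was lost without siNT replicate 3 (adjusted p = 0.0715), and the difference between the knockdowns fell short of the threshold (0.0565) but passed it in the fit of the 2 groups alone (0.0495). Of the summed TCF and LEF transcripts per exon length, LEF1 held 4.80% ± 0.763 after siNT, 11.1% ± 1.92 after siYAP and 8.94% ± 0.741 after siTAZ (SD, n = 3).

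**Figure D3:**
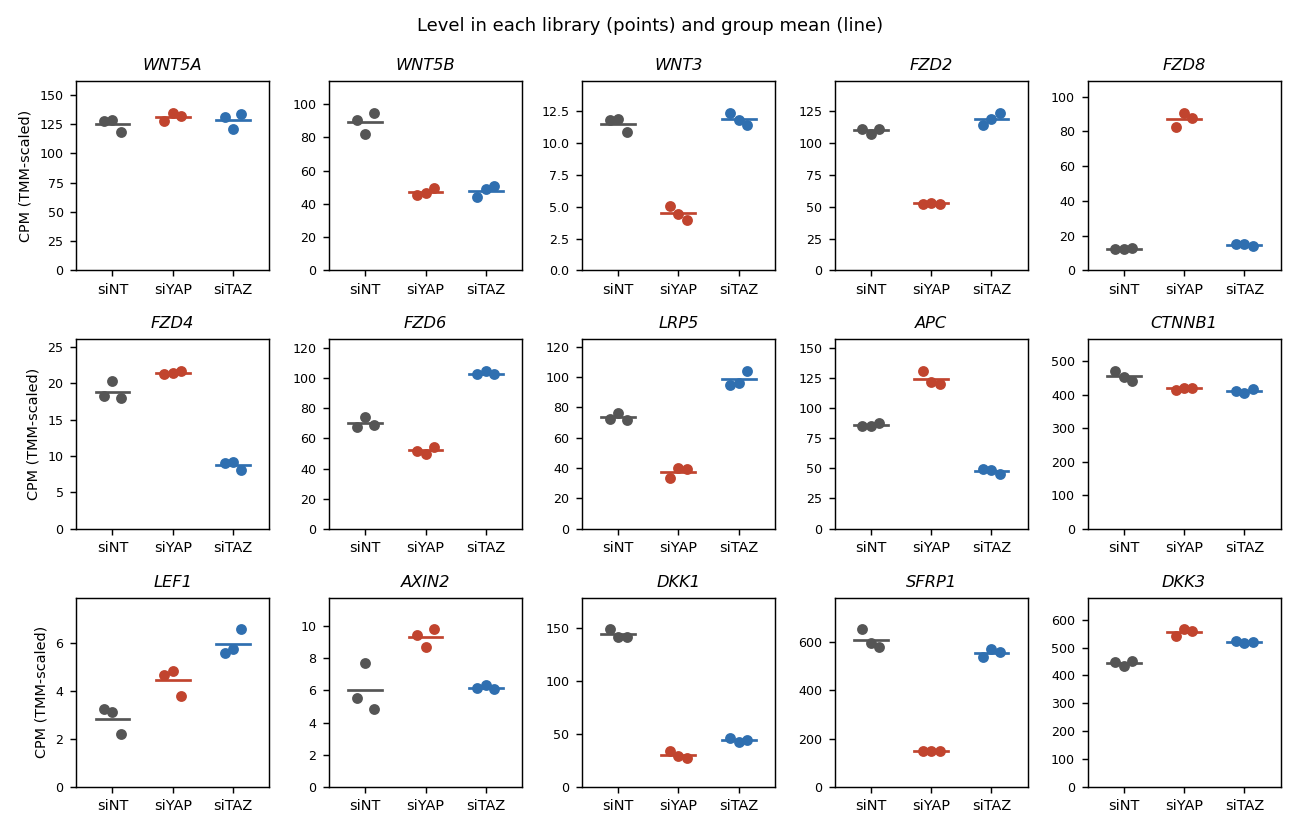
Level (CPM, linear axis from 0) of 15 members in each library (points) with the mean of 3 libraries per group (lines). Points of the 3 groups separate for DKK1, DKK3, LEF1, FZD6, LRP5 and APC, the siYAP points stand far from the others for FZD8, FZD2, WNT3 and SFRP1, the siTAZ points lie low for FZD4, and all 9 points of WNT5A lie between 118 and 135 CPM.

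Beyond the members, 81 further Wnt pathway genes from a list drawn up for this comparison were examined, of which 57 had enough counts to be tested. After siYAP 29 rose and 21 fell, 87.7% of those tested beside 67.1% of all genes, and after siTAZ 11 rose and 13 fell, 42.1% beside 34.6%. Their median log2 fold change was 0.15 after siYAP, where that of the members was -0.44, and 0 after siTAZ. Dishevelled genes, which relay the signal from Frizzled to the destruction complex, all rose after siYAP: DVL1 1.23-fold, DVL2 1.24-fold and DVL3 1.10-fold (adjusted p = 4.45e-06, 3.11e-07 and 0.00506). After siTAZ DVL1 and DVL2 fell 1.25-fold and 1.12-fold (4.31e-06 and 0.0105), and DVL3 rose 1.11-fold (0.00397). The siTAZ call for DVL2 was lost without siNT replicate 1 or 2 or siTAZ replicate 1 (0.0503 to 0.0747), and the siYAP call for DVL3 without the filter on low counts (0.0504).

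WLS, the carrier that brings Wnt ligands to the cell surface, went from 112 ± 2.65 CPM after siNT to 171 ± 5.85 after siYAP (1.52-fold, adjusted p = 1.36e-19) and stood at 112 ± 4.99 after siTAZ (0.976). The largest changes after siYAP among pathway genes averaging a log2 CPM of 1 or more were a fall of the TCF-bound corepressor TLE2 (6.09-fold, adjusted p = 9.71e-22), and changes of planar polarity genes. VANGL1 fell 2.5-fold and DAAM2 2.48-fold, while PRICKLE2 rose 2.80-fold and CELSR3 2.40-fold (adjusted p = 7.30e-22, 2.13e-05, 1.44e-21 and 3.47e-28). All 9 planar polarity genes were called after siYAP, 4 higher and 5 lower, beside 67.1% of all genes tested. After siTAZ the largest called change among these non-member genes was in BCL9L, a coactivator that binds beta-catenin, from 77.6 ± 1.24 to 30.2 ± 2.10 CPM (2.57-fold lower, adjusted p = 2.14e-28). BCL9L stood at 98.8 ± 3.68 CPM after siYAP, which gave it the same opposite pattern as APC. DACT1, a Dishevelled-binding regulator, rose 1.85-fold after siTAZ (adjusted p = 7.46e-07), and FRAT2 and AMER1 rose 1.43-fold and 1.40-fold (0.00121 and 0.000396).

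Genes known as beta-catenin targets in many tissues moved in both directions. After siYAP 4 of 7 tested rose and 3 fell, and after siTAZ 2 of 7 (28.6%) were called, both lower. Of all genes tested, 67.1% were called after siYAP and 34.6% after siTAZ. CCND1, which encodes cyclin D1, stood at 418 ± 12.2 CPM in the siNT libraries, 565 ± 9.54 with siYAP and 319 ± 1.96 with siTAZ (SD, n = 3; adjusted p = 7.68e-19 and 1.57e-15). CD44, a hyaluronan receptor, followed the same order with 466 ± 21.9, 694 ± 6.12 and 317 ± 10.7 CPM (7.28e-24 and 9.36e-22). MYC fell 1.23-fold after siYAP (adjusted p = 1.87e-05) and stood at 69.2 ± 5.51 CPM after siTAZ beside 70.3 ± 3.93 after siNT (0.818). The other falls after siYAP were larger, in TNFRSF19 (2.15-fold, adjusted p = 1.31e-17) and BMP4 (2.1-fold, 4.61e-12). The other rises after siYAP were in FGF18, on few counts (3.24-fold, adjusted p = 0.000563), and in TBX3 (1.35-fold, 1.09e-11). LGR5, a stem cell marker and Wnt target, had a mean of 0, 0 and 0.0180 CPM in the siNT, siYAP and siTAZ libraries and was not tested. These genes answer to many signals besides beta-catenin, MYC and CCND1 among them.

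**Figure D4:**
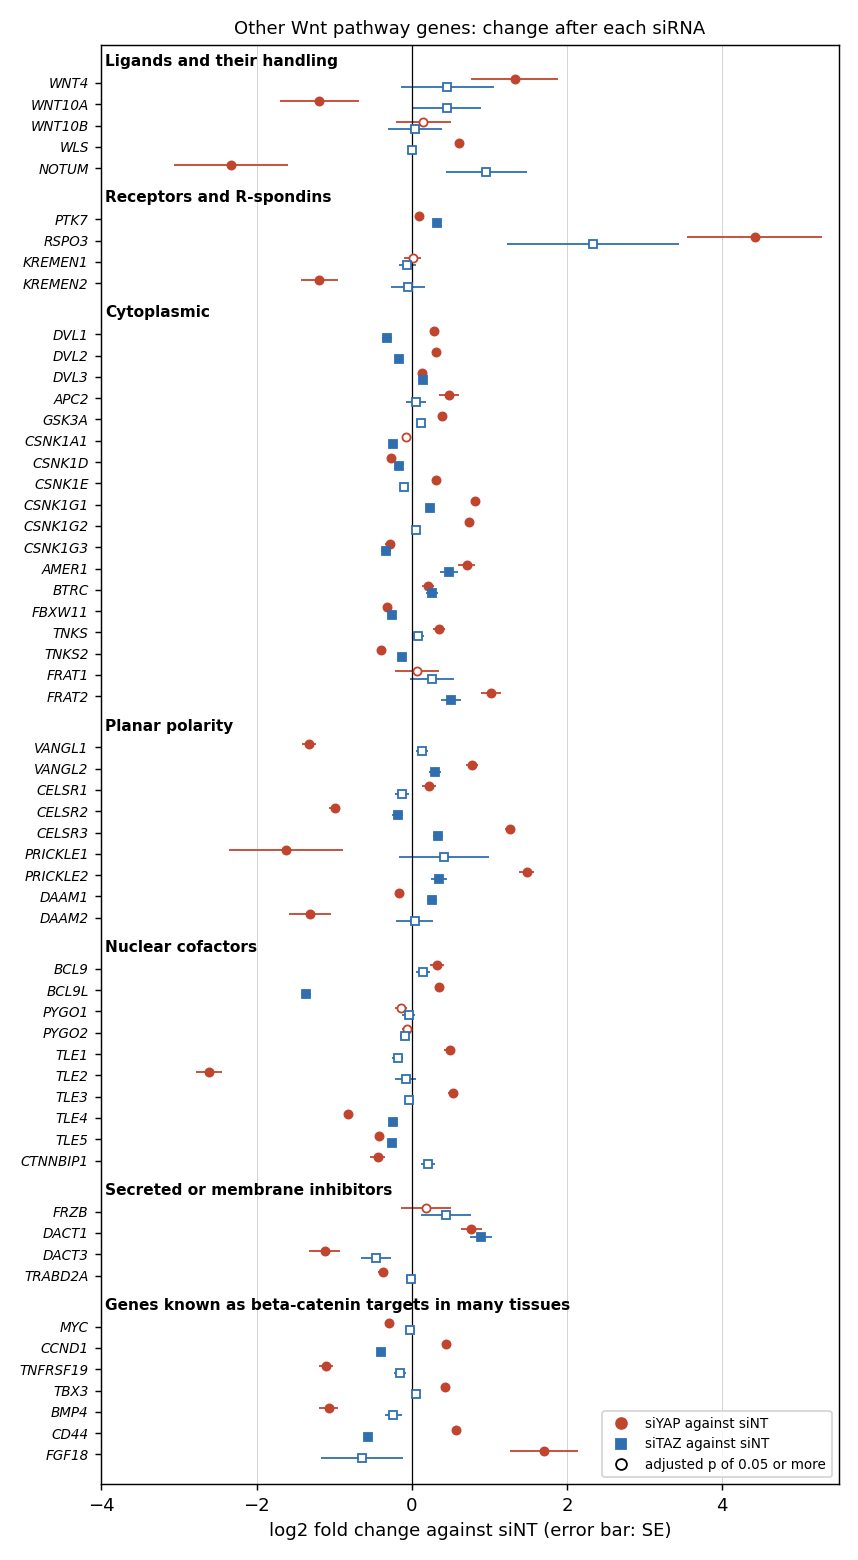
Log2 fold change against siNT, with its standard error, of 57 further Wnt pathway genes after siYAP (red circles) and siTAZ (blue squares). Filled symbols passed an adjusted p of 0.05. Planar polarity genes lie on both sides of zero after siYAP, BCL9L lies farthest left of these genes after siTAZ (-1.36), TLE2 is far left after siYAP (-2.61), and the widest bars, such as those of RSPO3 and NOTUM, belong to genes with few counts.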

How the data were processed

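The authors deposited unnormalized counts of reads by Ensembl gene ID, with a file for each of 9 libraries. Per the submitters' processing notes, the tools were HTSeq, Picard, SAMtools, Trim Galore and STAR 2.5.0c, with no role or setting given. The build named there is mm10, a mouse build, while all gene IDs are human, so the genome build is uncertain, and the annotation and strand setting are not given in the sources used here. Reads that HTSeq assigned to several genes (6.33% to 6.91% of each library) or to none stayed out of all totals.

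Symbols came from a gene name table. Exon lengths, overlaps, coordinates and 3′ UTRs came from GENCODE 29 on GRCh38, promoters from RefSeq. In R 4.3.3, edgeR 4.0.16 kept 15560 genes by filterByExpr (minimum count 10, minimum total 15), scaled libraries by TMM and fitted a robust quasi-likelihood model with group as the only term over all 9 libraries, sharing 1 estimate of the spread. Two-sided tests set each knockdown against siNT and siTAZ against siYAP, with Benjamini-Hochberg adjustment over all genes tested and calls at an adjusted p under 0.05. The fit was tested on simulated data. TPM values divide counts by exon length and ignore genes without a length.

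Values in every library are given for members called with a log2 fold change of at least 1 in size in any comparison, and for CTNNB1, AXIN2, WNT5A, WNT5B, LRP6, TCF7L2 and LEF1. FZD6 and DKK3 have such values too, chosen after their values were seen. Other pathway genes named are the 5 largest called changes per comparison with siNT whose average log2 CPM was 1 or more, and MYC, CCND1, WLS, DVL1, DVL2, DVL3 and LGR5. TNFRSF19, BMP4, FGF18 and TBX3 were added after their values were seen. RSPO3 and NOTUM are named in a figure caption only, for their wide error bars. The rule for the members sets no threshold on measured values, but the members and lists were chosen with earlier results of these data known. Alternatives were scaling by RLE or upper quartile, dropping the filter, requiring a CPM of 1 or more in 3 libraries, a replicate block, a fit of the 2 groups alone, DESeq2 1.42.0, each library left out, an adjusted p under 0.01 and a test against a 1.5-fold change.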

Additional observations from a re-analysis of the deposited data

How the results depend on the processing

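Of the counts of called members and of other pathway genes, in each direction and comparison, those under every alternative except the test against a 1.5-fold change were within 1.5 times the main count. That test asks for a larger change by its construction. For siYAP against siNT it called 2 members higher and 6 lower (8 and 21 in the main fit) and 8 other pathway genes higher and 10 lower. For siTAZ against siNT, edgeR's test of this kind called 0 members higher (7 in the main fit and 6 with DESeq2, both tests against no change), and 0 other pathway genes higher (11 and 11) and 1 lower. Between siTAZ and siYAP it called 7 members higher and 4 lower, and 10 other pathway genes higher and 8 lower. Of all 15560 genes tested, the same test called 1957 higher and 1895 lower after siYAP, and 115 and 227 after siTAZ. Between siTAZ and siYAP it called 1736 genes higher and 1897 lower. No called fold change of a named gene changed sign under any alternative. Of the comparisons of single genes with alternatives other than a left-out library, 1358 kept their side of the threshold, 87 lost a call and 4 gained one, and among those that left out a library 942 kept it, 26 lost a call and 4 gained one.

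No pairing by replicate number was visible in expression. Deviations of same-numbered libraries from their group means correlated at -0.031 to 0.014, beside -0.021 to 0.023 for differently numbered libraries. Whether libraries were paired in culture or preparation is not given in the labels. With the replicate block, 5240 genes were higher and 5194 lower after siYAP, beside 5254 and 5194 without it, and the members' calls changed only for WNT7B after siYAP (adjusted p = 0.0560). No scaling moved the median of all genes by more than 0.1 on the log2 scale. Depth limits WNT2, WNT16, DKK2, RNF43 and NKD2, which had too few counts to be tested, and NKD1, WNT7B and WNT11, whose calls rest on few counts.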
